A study of Mus musculus with 8 samples.

Results

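Rnd3 and Arl5a lie close together on mouse chromosome 2, and both stood lower in colon tumors of mice with a VP16LXRa transgene than in tumors of mice with VP16 alone. They were chosen for that difference on these arrays, and with them the genes around them: Rbm43, Nmi, Rif1, Stam2, Fmnl2 and Arl6ip6, chosen by position. The members were all probes whose symbol was 1 of 9, where 2810410P22Rik is an older name of Arl5a, so that the 9 symbols stand for 8 genes. They came to 8 of the 18138 gene symbols and 11 of the 25697 probes of the array table. No probe carried the symbol Fmnl2, which was not analysed here. The comparison asks whether the adjacent genes differ together with Rnd3 and Arl5a, as a chromosome segment from another strain could make them. Whether such a segment is present was not tested.

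Total RNA of 8 colon tumor samples was hybridised to 1-colour Illumina BeadChips. In 4 samples the mice had the genotype APCmin/+/VP16LXRa (replicates 5 to 8), in which the activation domain of the viral protein VP16 is fused to the oxysterol receptor LXRα. In the other 4 they had the genotype APCmin/+/VP16 (replicates 1 to 4), in which VP16 stands alone. All mice carried the Min allele of Apc, which truncates this inhibitor of Wnt signalling and causes intestinal tumors. All were 8 months old and of a mixed C57BL/6J and FVBN strain, so that a given stretch of a chromosome may differ in strain origin from mouse to mouse. That origin was not analysed here. The sources used here name neither the promoter of the transgene nor how many mice the tumors came from.

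Rnd3, also known as RhoE, is an atypical small GTPase that stays bound to GTP. It binds the kinase ROCK1 and the GTPase-activating protein p190RhoGAP and so loosens actin stress fibres, which affects cell shape, migration and proliferation. Arl5a belongs to the ARF-like GTPases and sits at the trans-Golgi, where ARL5 proteins recruit the GARP tether that receives vesicles coming back from endosomes. Of their neighbours, Rbm43 is an RNA-binding protein, Nmi an interferon-induced partner of STAT proteins, Rif1 a factor that protects broken DNA ends and times replication, Stam2 a subunit of the ESCRT-0 complex that sorts ubiquitinated receptors, and Fmnl2 a formin that elongates actin filaments. Arl6ip6 encodes a membrane protein that interacts with ARL6.

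The stretches just before the start sites of Rnd3 and Arl5a are shown because these genes stood lower together. Both come from RefSeq (GRCm38.p6), in which 7 of the 8 genes, all but Rif1, were looked up. Each runs over the 250 bases before the start site on the minus strand. Capitals mark every match on either strand to the core motifs of the TATA box, the GC box and the CCAAT box, whose letters are given after the sequences. The Rnd3 stretch lies at chr2:51149112-51149361 and the Arl5a stretch at chr2:52424875-52425124.
Rnd3: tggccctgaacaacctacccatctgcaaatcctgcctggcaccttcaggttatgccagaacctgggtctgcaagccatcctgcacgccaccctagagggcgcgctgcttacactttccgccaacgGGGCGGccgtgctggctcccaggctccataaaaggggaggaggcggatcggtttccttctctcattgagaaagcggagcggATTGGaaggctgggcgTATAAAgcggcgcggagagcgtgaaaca
Arl5a: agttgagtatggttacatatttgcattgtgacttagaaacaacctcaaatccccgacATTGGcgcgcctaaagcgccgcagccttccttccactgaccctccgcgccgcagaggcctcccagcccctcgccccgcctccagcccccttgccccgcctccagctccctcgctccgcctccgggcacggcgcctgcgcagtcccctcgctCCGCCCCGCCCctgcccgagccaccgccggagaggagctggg
Rnd3 held 1 TATA box core, searched as TATAAA, 28 to 23 bases before the start, which 12.4% of all 32851 listed promoters held in a window of the same length. Arl5a held none. The core of the GC box, searched as GGGCGG, was present once in Rnd3 and 2 times in Arl5a, where the copies overlap by 1 base, and in 32.7% of all promoters. The core of the CCAAT box, which reads ATTGG on the other strand, was present once in each and in 33.8% of all. Neither stretch held AGGTCA, a core site of many nuclear receptors (14% of all promoters), and so neither held its direct repeat with a spacing of 4 bases, the DR4 element to which LXR binds, of which an exact match was found in 0.0152% of all promoters. No match means only that these letters are not in this window. The GC content was 60.0% for Rnd3 and 68.4% for Arl5a, against a median of 52.4%.

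Between 11469 and 12257 probes per array had a detection p-value under 0.01, and 11875 probes passed the filter of such a value on at least 4 arrays. These stand for 9021 genes. Of the 11 member probes 7 passed: the probe of Rnd3, all 3 of Arl5a, and 1 each of Rbm43, Nmi and Stam2. The intestinal epithelial markers Cdh1, Vil1, Krt8, Krt19, Cdx1 and Cdx2 were detected on all 8 arrays. There were 2 arrays that stood apart from the rest in the level of Axin2. This gene, a feedback inhibitor of Wnt signalling, stood at a log2 intensity of 11.54 in VP16LXRa replicate 5 and 11.35 in VP16 replicate 1, and between 8.51 and 9.15 elsewhere. With 4 arrays a genotype, the precision of the differences is limited by their number.

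Rnd3 was lower in every VP16LXRa tumor than in every VP16 tumor. Its normalized log2 intensity was 6.41, 6.95, 6.56 and 7.68 in VP16LXRa replicates 5 to 8, and 8.34, 8.06, 8.62 and 8.75 in VP16 replicates 1 to 4. The groups did not overlap, VP16LXRa replicate 8 lay nearest to the VP16 tumors, and the highest VP16LXRa value stayed 0.375 below the lowest VP16 value. The means were 6.90 ± 0.57 in VP16LXRa and 8.44 ± 0.31 in VP16 tumors (SD, n = 4 each), a log2 difference of -1.54 (SE 0.30) or a level 2.91-fold lower. The signals before any processing showed the same separation, with 191, 232, 174 and 292 in VP16LXRa tumors and 481, 377, 483 and 561 in VP16 tumors. Total RNA cannot tell fewer cells of a type from less RNA per cell.

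Arl5a was measured by 3 probes, which share 1 search key in the table, and each of them separated the groups. The probe listed as Arl5a, the brightest by a narrow margin, stood at 6.49, 6.80, 6.37 and 7.09 in VP16LXRa replicates 5 to 8 and at 7.35, 7.43, 7.49 and 7.69 in VP16 replicates 1 to 4. The first probe listed as 2810410P22Rik stood at 6.27, 6.51, 6.19 and 6.76 in VP16LXRa tumors and at 7.71, 7.71, 7.54 and 7.96 in VP16 tumors. The VP16LXRa tumors kept 1 order on these probes, with replicate 7 lowest and replicate 8 highest. The second 2810410P22Rik probe stood at 5.85, 5.87, 5.55 and 6.65 in VP16LXRa tumors and at 7.34, 7.50, 7.22 and 7.49 in VP16 tumors, with the same replicates lowest and highest among the VP16LXRa tumors.

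The probes differed in the size of the Arl5a difference. The probe listed as Arl5a gave 6.69 ± 0.32 in VP16LXRa and 7.49 ± 0.15 in VP16 tumors (SD, n = 4 each), a log2 difference of -0.80 (SE 0.19) or 1.75-fold lower. The 2810410P22Rik probes gave -1.30 (SE 0.18), 2.46-fold lower, and -1.40 (SE 0.24), 2.64-fold lower. After centring each probe on its mean, the 2810410P22Rik probes differed from each other by a root mean square of 0.18 over the 8 arrays, and from the Arl5a probe by 0.26 and 0.34. Which part of the transcript each probe reads is not known here, and strain differences under the probes were not examined. Groups did not overlap, with VP16LXRa lower, for 0.64% of the 11875 tested probes. Since the difference itself chose Rnd3 and Arl5a, nothing is read from their place among these.

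**Figure D1:**
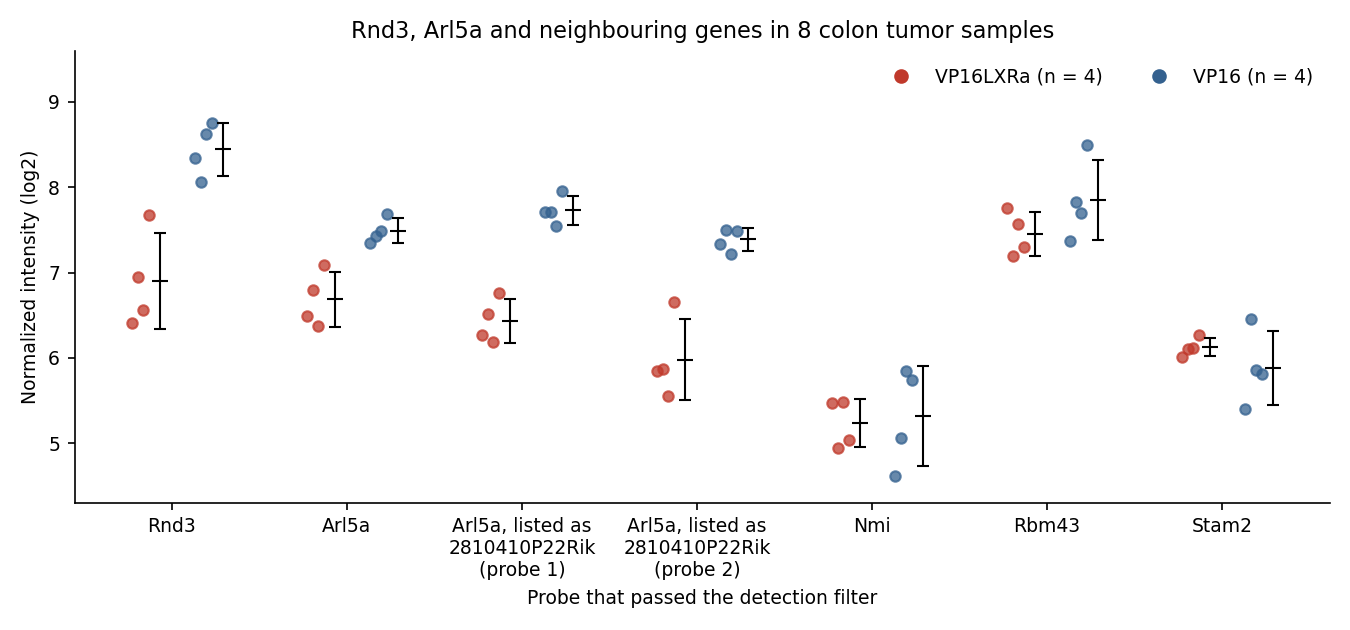
Normalized log2 intensity (y axis) of the 7 member probes that passed the filter (x axis), with 1 point per tumor, VP16LXRa in red left of VP16 in blue, and the mean with its SD (n = 4 each) as a black bar. The groups lie apart for Rnd3 and the 3 Arl5a probes and overlap for Nmi, Rbm43 and Stam2.

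By the size of the difference Rnd3 had rank 31 from the lowest among the 11875 tested probes, and the Arl5a probes had ranks 38, 43 and 145, with ranks counted for description. Just outside the choice by position, Mmadhc, the annotated gene next before Rnd3, stood at 8.64, 8.94, 8.53 and 8.78 in VP16LXRa tumors and at 9.01, 8.76, 9.02 and 9.54 in VP16 tumors. The groups overlapped over all 8 arrays. Mmadhc, a vitamin B12 trafficking protein, differed by -0.36 (SE 0.20), which did not pass limma's test (adjusted p = 0.9999). Without VP16 replicate 2 it was -0.47 and the groups did not overlap, with VP16LXRa lower (limma adjusted p = 0.9999). In that setting the groups did not overlap for 2.48% of all tested genes.

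Rnd3 and Arl5a were both chosen for a lower level in the same 4 of these 8 arrays, so the likeness of their profiles follows in part from that choice and supports nothing. Among 9020 other genes the one nearest to Rnd3 was Arl5a, at the nearest of its 3 probes. Likeness was measured as the root mean square difference between profiles centred on their means, taken at the nearest probe of each gene, and it was 0.28 for Arl5a. Next in order, leaving out a clone name, came Gspt2, a translation termination factor (0.40), Metap1d, a mitochondrial aminopeptidase listed as Metapl1 (0.47), and Cmas, which activates sialic acid (0.48). Gspt2 stood at 6.36 ± 0.34 in VP16LXRa and 7.37 ± 0.11 in VP16 tumors (SD, n = 4 each). Nearest to the brightest Arl5a probe were Gtpbp8 (0.20), Nckap1 (0.20), L3mbtl3 (0.21) and Gspt2 (0.21). Nckap1, a subunit of the actin-nucleating WAVE complex, also lies on chromosome 2, outside the nearest 50 genes on either side, and stood at 8.81 ± 0.31 in VP16LXRa and 9.41 ± 0.23 in VP16 tumors. Rnd3 had place 1229 from this Arl5a probe (0.43), a measure on which genes with small differences lie close to each other. A gene chosen for likeness to a gene that separates the groups will tend to separate them too, so these values are a description.

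Over all 8 arrays none of the tested neighbours separated the groups, but 1 of them, Rbm43, did so with VP16LXRa lower once the 2 arrays high in Axin2 were left out. Rbm43 stood at 7.76, 7.19, 7.57 and 7.30 in VP16LXRa replicates 5 to 8 and at 7.37, 7.83, 7.70 and 8.49 in VP16 replicates 1 to 4. The groups overlapped, and VP16 replicate 4 was the one tumor well above the rest. The Rbm43 means were 7.46 ± 0.26 in VP16LXRa and 7.85 ± 0.47 in VP16 tumors (SD, n = 4 each), a log2 difference of -0.39 (SE 0.26, 95% interval -0.98 to 0.19). It did not pass limma's test (adjusted p = 0.9999 over all tested probes). The size of the Rbm43 difference depended on single arrays. Without the 2 arrays high in Axin2 it was -0.65 and the groups did not overlap (limma, unadjusted p = 0.0324, adjusted p = 0.9998). In that setting, with 3 arrays a genotype, the groups did not overlap for 8.03% of all tested genes, and 3.18% had an unadjusted p under 0.05. With array weights the Rbm43 difference was -0.46 (limma, unadjusted p = 0.0428, adjusted p = 0.9996), and without VP16 replicate 4 it was -0.18.

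Nmi was near background. Its values were 5.47, 4.94, 5.48 and 5.04 in VP16LXRa tumors and 4.62, 5.06, 5.85 and 5.74 in VP16 tumors, and detection passed in 2 of the 4 VP16LXRa tumors and in 2 of the 4 VP16 tumors. The VP16 tumors spread on both sides of the VP16LXRa tumors. The log2 difference of Nmi was -0.08 (SE 0.30, 95% interval -0.76 to 0.60, limma adjusted p = 0.9999). Over the alternatives run it ranged from -0.40, without the 2 arrays high in Axin2, to 0.09, without VP16 replicate 3, and the groups overlapped in each.

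Stam2 at its detected probe stood at 6.01, 6.10, 6.12 and 6.27 in VP16LXRa tumors and at 5.40, 6.46, 5.86 and 5.81 in VP16 tumors. The VP16LXRa tumors lay within the range of the VP16 tumors. The log2 difference of Stam2 was 0.24 (SE 0.23, 95% interval -0.27 to 0.76, limma adjusted p = 0.9999), of opposite sign to those of Rnd3 and Arl5a. Single VP16 arrays decided its size. Without VP16 replicate 2, the highest, the Stam2 difference was 0.43 and the groups did not overlap, with VP16LXRa higher (limma, unadjusted p = 0.0477, adjusted p = 0.9999), and without VP16 replicate 1 it was 0.08. The groups did not overlap for 2.48% of all tested genes without VP16 replicate 2. The other Stam2 probes were near background, the one detected on no array and the other on 1, with differences of 0.04 and 0.11 that were not tested.

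With all 8 arrays and equal weights 0 of the 3 tested neighbours passed after adjustment, and 0 had an unadjusted p under 0.05 by limma, against 0.00842% and 1.68% of all tested probes. Their median log2 difference was -0.08, and that of all 9021 tested genes was 0.01. The interval of Stam2 over all 8 arrays lies above the -0.80 of the Arl5a probe. Background limits what the intervals of Nmi and Stam2 can show further, since undetected probes averaged 4.53 to 4.57 per array. From its VP16 mean of 5.32, Nmi could hardly reach a difference of -0.80 or of -1.54. From 5.88, Stam2 could hardly reach the -1.54 of Rnd3. No conclusion is drawn from their intervals at those sizes. The interval of Rbm43 lies above the -1.54 of Rnd3 but holds the -0.80 of the Arl5a probe. For Rbm43 a difference of the size of the smaller Arl5a one was therefore not excluded at this number of arrays. The sizes -1.54 and -0.80 come from genes chosen for them and have an SE of their own (0.30 and 0.19). No shift of a neighbour is called excluded from this comparison.

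The remaining members gave no level. Rif1 was detected on none of the 8 arrays, and its detection p-values ranged from 0.0664 to 0.208 in VP16LXRa tumors and from 0.323 to 0.97 in VP16 tumors. Its log2 intensities were 4.71, 4.89, 5.00 and 4.67 in VP16LXRa tumors and 4.51, 4.55, 4.28 and 4.47 in VP16 tumors, close to the mean of undetected probes (4.53 to 4.57 per array). The VP16LXRa values of Rif1 were all the higher ones, but with both groups not above background no fold is given and no test was made. Arl6ip6 was likewise detected on no array, at 4.60, 4.61, 4.61 and 4.40 in VP16LXRa tumors and 4.70, 4.52, 4.39 and 5.02 in VP16 tumors.

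Between Rnd3 and Stam2 the annotation also places Tas2r134, Tnfaip6, Neb and Cacnb4, which are not members. No probe carried the symbols Tnfaip6 or Neb, and the taste receptor Tas2r134 was detected on no array. Cacnb4, a calcium channel subunit that directly follows Arl5a, stood at 5.55 ± 0.50 in VP16LXRa and 5.53 ± 0.18 in VP16 tumors (SD, n = 4 each), a log2 difference of 0.02 (SE 0.25, 95% interval -0.56 to 0.60, limma adjusted p = 0.9999). It was detected in 3 of 4 tumors of each genotype. From its VP16 mean of 5.53, near background, Cacnb4 had little room for a difference of -0.80 and could hardly reach -1.54. No conclusion is drawn from its interval at those sizes. Without VP16LXRa replicate 7 the Cacnb4 difference was 0.26 and the groups did not overlap, with VP16LXRa higher (limma adjusted p = 0.9998). The groups then did not overlap for 2.37% of all tested genes. Of Rbm43, Nmi, Cacnb4 and Stam2, the 4 genes from Rnd3 to Stam2 with a test here, 2 had negative and 2 positive differences. With all 8 arrays 0 of the 4 passed limma's test, against 0.0111% of all tested genes. An unadjusted p under 0.05 was found for 0, against 1.68% of all tested probes. The groups overlapped for all 4, and did not overlap for 1.25% of all tested genes. These counts are near what such shares give for any 4 genes.

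Farther out, over all 8 arrays, no tested gene among the nearest 25 protein-coding genes on each side separated the groups. Of these 50 genes 21 were tested, 13 with negative and 8 with positive differences, a median of -0.07 and a range of -0.74 to 0.40. For 0 of the 21 the groups did not overlap, against 1.25% of all 9021 tested genes, in which 47.7% of differences were negative. None passed limma's test, against 0.0111% of all tested genes, and 1 had an unadjusted p under 0.05. That gene was Zeb2, a transcriptional repressor known for driving the epithelial-mesenchymal transition, chosen here after its values were seen. Zeb2 stood at 7.19, 6.88, 7.75 and 7.45 in VP16LXRa tumors and at 8.48, 8.32, 8.27 and 7.16 in VP16 tumors (log2 difference -0.74, SE 0.32, limma adjusted p = 0.9999). VP16 replicate 4 lay among the VP16LXRa tumors. Without it the difference was -1.04 and the groups did not overlap, as for 2.79% of all tested genes.

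Before Rnd3, 7 of 14 tested genes within the nearest 25 had negative differences, and after Arl6ip6, 6 of 7. The median after Arl6ip6 was -0.14, and the lowest difference there was the -0.40 of Ly75, an endocytic receptor of dendritic cells and epithelia. Among the nearest 50 on each side 34 genes were tested, again with 0 whose groups did not overlap and 0 past limma's test, and 22 had negative differences. Leaving out single arrays brought at most 2 of the 34 to separate the groups, Zeb2 and Orc4 without VP16 replicate 4. In that setting the groups did not overlap for 2.79% of all tested genes. Orc4, a subunit of the replication origin complex, then differed by 0.53, in the opposite direction to Zeb2.

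**Figure D2:**
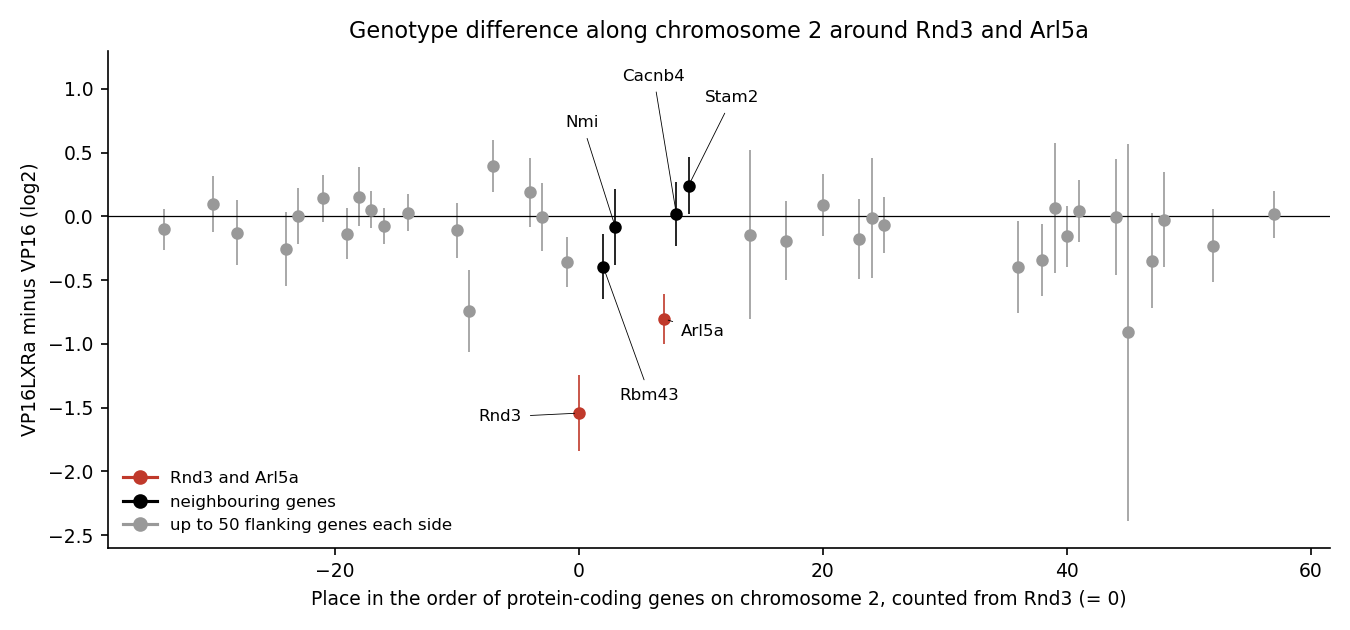
Log2 difference, VP16LXRa minus VP16, with its SE (y axis) for the genes reported here, each at its brightest probe, placed by its order among the protein-coding genes of chromosome 2 counted from Rnd3 (x axis). Rnd3 at -1.54 and Arl5a at -0.80 are in red; Rbm43, Nmi, Cacnb4 and Stam2, from -0.39 to 0.24, in black; and the 34 tested flanking genes in grey.

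Over chromosome 2 as a whole the differences leaned the other way. Without Rnd3 and Arl5a, 666 genes were tested and only 33.8% had negative differences, with a median of 0.07, while on the other chromosomes together 48.9% of 7918 genes did, with a median of 0.0060. This rested on 1 array. Without VP16LXRa replicate 5, 49.1% of the chromosome 2 genes had negative differences and the median was 0.0048.

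In VP16LXRa replicate 5 the median deviation of the chromosome 2 genes from their mean over the 8 arrays was 0.22, and 66.5% of them lay above that mean. Its medians over the other chromosomes ran from -0.096 to 0.080. The other 3 VP16LXRa tumors had chromosome 2 medians of -0.026, -0.025 and -0.020, and the VP16 tumors -0.038, -0.038, -0.028 and 0.0020. VP16LXRa replicate 5 thus lay above every other array on this chromosome, and the DNA copy number of the tumors was not analysed here. Rnd3 and Arl5a did not share that lean: in VP16LXRa replicate 5 Rnd3 lay at -0.65 and Arl5a at -0.26 relative to the mean of the other 3 VP16LXRa tumors. On the same scale Stam2 lay at -0.15, Rbm43 at 0.40, Nmi at 0.31 and Cacnb4 at 0.21. Of the 34 flanking genes 41.2% lay above, against 65.2% of the 666 on the whole chromosome. Without VP16LXRa replicate 5 the difference of Rnd3 was -1.38 and that of the brightest Arl5a probe was -0.74.

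**Figure D3:**
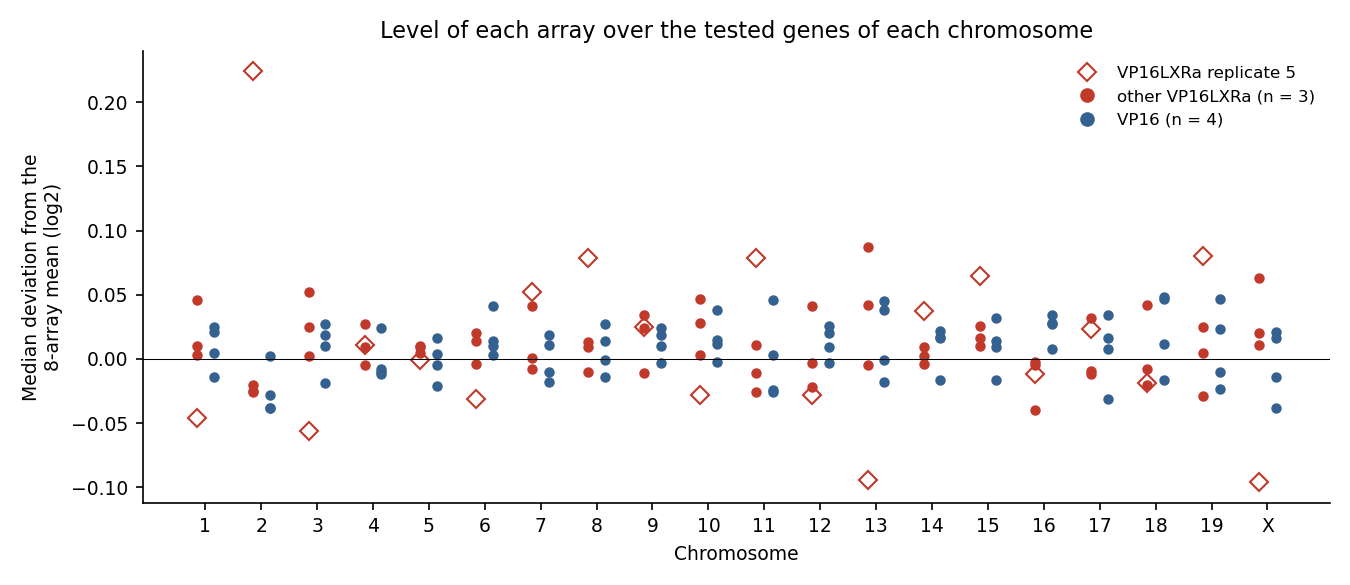
Median deviation of all tested genes of a chromosome from their 8-array mean, in log2 units (y axis), for each chromosome (x axis), with 1 point per array, VP16LXRa in red left of VP16 in blue and VP16LXRa replicate 5 as an open diamond. On chromosome 2 that array stands at 0.22 and the other 7 between -0.038 and 0.0020.

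No gene of the families and partners of the members passed limma's test. Over 7 lists 75 genes were tested, of which 0 passed (adjusted p) and 1 had an unadjusted p under 0.05. Negative differences were found for 46 (61.3%, against 47.7% of all tested genes). Of these 46, 11 came from the interferon list, in which all 11 tested genes were lower. In the ROCK and actomyosin pathway 10 of 18 genes were tested, 4 lower and 6 higher, with a median of 0.06. Rock1, the kinase that Rnd3 binds, differed by -0.06 (SE 0.19), and Arhgap35, which encodes p190RhoGAP and is listed as Grlf1, by 0.22 (SE 0.28). Limk1, a kinase downstream of ROCK, had a difference of 0.45 (SE 0.36). Rock2 had probes of opposite sign, at -0.42 (SE 0.36) for the brighter and 0.70 (SE 0.27) for the dimmer. The counts above take each gene at its brightest probe, so the dimmer Rock2 probe is not among them.

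Of the ARF and ARL family other than Arl5a, 19 of 27 genes were tested, 10 lower and 9 higher, with a median of -0.04 and a range of -0.34 (Trim23, a GTPase with a ubiquitin ligase domain) to 0.28 (Arl11). Arl5b, the closest relative of Arl5a, differed by 0.02 (SE 0.31). Arl8b, which moves lysosomes, had a difference of 0.11 (SE 0.15). The GARP tether and trans-Golgi genes were 5 lower and 4 higher of 9 tested, with a median of -0.07. Among them the GARP subunits Vps53 and Vps54 both stood at -0.09 (SE 0.14 and 0.24), the golgin Gcc2 at -0.30 (SE 0.35) and the SNARE regulator Vps45 at 0.28 (SE 0.18).

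For the partners of Stam2, 11 of 13 ESCRT genes were tested, 8 lower and 3 higher, with a median of -0.04. Usp8, a deubiquitinase that binds STAM proteins and is itself on chromosome 2, was the gene with an unadjusted p under 0.05. It stood at 5.23, 5.29, 4.66 and 4.90 in VP16LXRa tumors and at 5.37, 5.48, 5.42 and 6.07 in VP16 tumors, a log2 difference of -0.57 (SE 0.22, limma adjusted p = 0.9999). The groups did not overlap, but Usp8 was detected in only 1 of 4 VP16LXRa tumors, against 4 of 4 VP16 tumors. It thus passed the filter only through the VP16 tumors, which favours a lower VP16LXRa level. Nothing is read from its p-value or its separation. The sorting subunit Vps37b had a difference of 0.13 (SE 0.14).

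Of the formins 6 of 12 were tested, 3 lower and 3 higher, with Diaph1, listed as Diap1, at -0.40 (SE 0.21) and Fhod1 at 0.11 (SE 0.16). Of the double-strand break response genes around Rif1 9 of 13 were tested, 5 lower and 4 higher, with a median of -0.0074. The phosphatase subunit Ppp1cc separated the groups at -0.33 (SE 0.17), with detection in 1 of the 4 VP16LXRa tumors against all 4 VP16 tumors. It too passed the filter only through the VP16 tumors, so nothing is read from its separation. The histone gene H2ax, listed as H2afx, differed by 0.37 (SE 0.26). None of these passed.

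The interferon response genes were the list farthest from 0. All 11 tested had negative differences, with a median of -0.97, none past limma's test and none with an unadjusted p under 0.05. Nmi, itself interferon-induced, stood at -0.08. From its VP16 mean of 5.32, near background, Nmi could hardly reach a difference of -0.97, so nothing is read from that contrast. Ifi35, which forms a complex with Nmi, differed by -0.50 (SE 0.39), and the GTPase Mx2 by -0.97 (SE 0.46). The summed intensity of the list ran from 1616 to 4984 in VP16LXRa tumors and from 2612 to 14260 in VP16 tumors, so the groups overlapped.

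**Figure D4:**
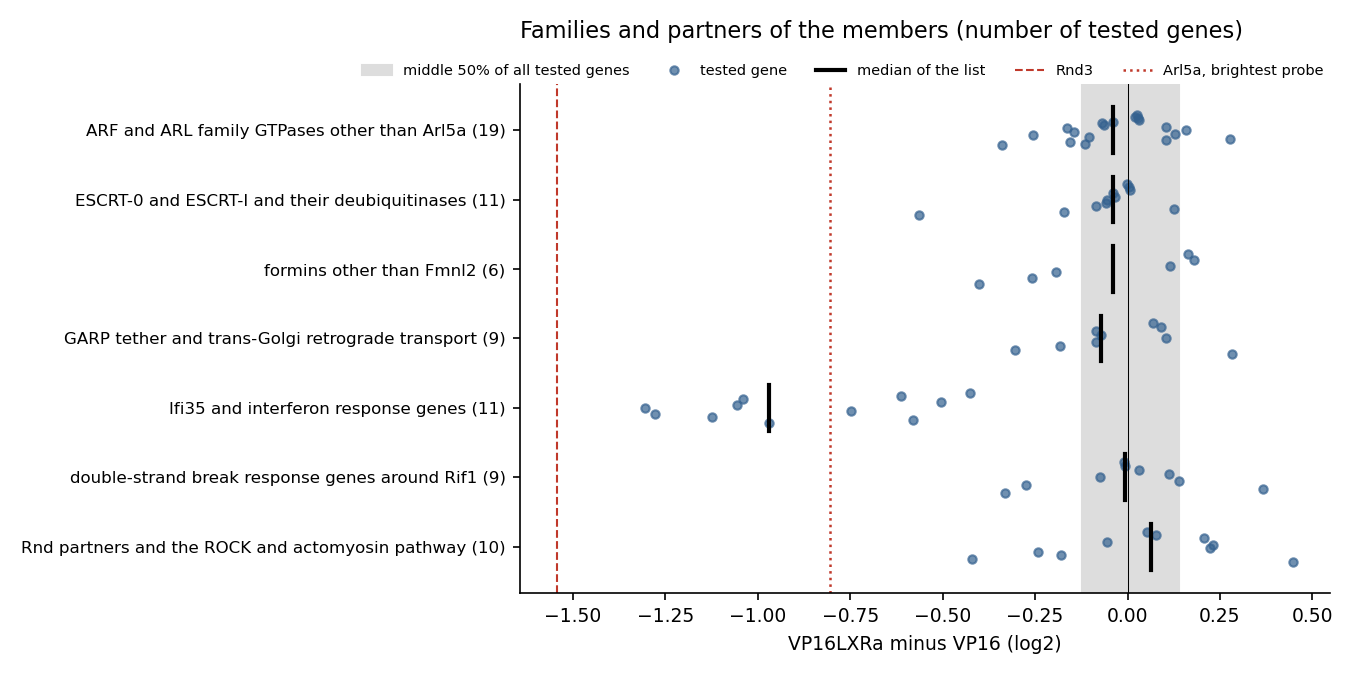
Log2 difference, VP16LXRa minus VP16 (x axis), of each tested gene in the 7 lists (y axis, with the number tested), with the median of a list as a black bar and the middle 50% of all 9021 tested genes, -0.12 to 0.14, in grey. The dashed line marks Rnd3 at -1.54 and the dotted line the brightest Arl5a probe at -0.80; every list but the interferon genes has its median near 0.

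Markers of other cell types overlapped between the groups. Of the epithelial markers 9 of 9 tested genes had negative differences (median -0.19), and their summed intensity ran from 38010 to 56340 in VP16LXRa and from 48220 to 69350 in VP16 tumors. Of the colonocyte markers 7 of 7 had negative differences (median -0.72), with sums from 3561 to 74320 in VP16LXRa tumors and from 21250 to 78880 in VP16 tumors. The negative colonocyte differences rested on VP16LXRa replicate 5. In that tumor Krt20 stood at 5.36 and Aqp8 at 4.54, against 12.48 to 13.29 and 12.41 to 12.78 in the other VP16LXRa tumors. In VP16 tumors Krt20 ran from 11.23 to 13.59 and Aqp8 from 9.17 to 13.20. For the fibroblast markers 2 of 8 differences were negative (median 0.20), with sums from 4799 to 16340 in VP16LXRa and from 3361 to 16910 in VP16 tumors. For the smooth muscle markers 3 of 7 were negative (median 0.07), with sums from 12200 to 58210 in VP16LXRa and from 9065 to 76740 in VP16 tumors. The remaining lists held mostly positive differences. The macrophage markers had 7 of 8 positive (median 0.53), with sums from 2270 to 7913 in VP16LXRa and from 1830 to 4365 in VP16 tumors. The T cell markers had 5 of 5 positive (median 0.48), with sums from 557 to 1419 in VP16LXRa and from 258.6 to 1321 in VP16 tumors. The endothelial markers had 4 of 6 positive (median 0.07), with sums from 1189 to 2884 in VP16LXRa and from 908 to 2304 in VP16 tumors. The Wnt target genes had 7 of 9 positive (median 0.28), with sums from 1601 to 7316 in VP16LXRa and from 1489 to 6012 in VP16 tumors. No list separated the groups. Rnd3 and Arl5a did, but they were chosen for their difference and the lists were not, so nothing is read from that contrast. The part of any list in the differences of Rnd3 and Arl5a was not tested. Without the 2 arrays high in Axin2, Rnd3 differed by -1.41 and the brightest Arl5a probe by -0.79.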

How the data were processed

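Per the file headers, the deposited table gives for every probe on every array an average bead signal, a linear and not normalized intensity, with its detection p-value. It was made with GenomeStudio, per the submitters' processing notes, which give no version. A further deposited table holds the authors' processed intensities; no header names its steps, and its values are linear, go below 0 and have array medians of 18.04 to 18.16. The array medians of the raw signal were 126.2 to 145.8.

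These signals went through neqc (limma 3.58.1, R 4.3.3), which takes background out by normexp using detection p-values, adds an offset of 16, quantile-normalizes and gives log2 values. A probe was kept where detection p was under 0.01 on 4 or more arrays. The offset shrinks differences of dim probes. Differences are VP16LXRa minus VP16, from lmFit and eBayes over all kept probes, two-sided, with Benjamini-Hochberg adjustment and a threshold of 0.05. For Rnd3 and Arl5a, chosen by this contrast, no test is given. Genes were taken at their brightest kept probe. Gene names and order follow GRCm38.p6, which matched 17213 of 18138 symbols; the sources used here name no build for the probe annotation.

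Members and gene lists were chosen with earlier results of these data known. Named were all members, genes between them, for each list the tested gene with the smallest p in each direction and, by likeness, 4 genes each for Rnd3 and Arl5a. A gene and a gene list are not reported here. Zeb2, Mmadhc, Orc4, Ly75, Rock1, Arhgap35, Arl5b, Vps53, Vps54 and Ifi35 were added after their values were seen. As no label states that each tumor is from its own mouse, the p-values cover only the spread between these samples, which may be technical. No 2 arrays held identical values, and no file names a slide or scan. The test was checked on simulated data. Alternatives were other corrections, normalizations, offsets, filters, variance models and left-out arrays.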

Additional observations from a re-analysis of the deposited data

Results flagged for a closer look

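Within the 4 tumors of a genotype, 2 of the 22 sets of values examined (11 probes in each genotype) had 1 tumor far from the other 3. Chance gives about 1 in 20 such sets. Both were in VP16LXRa replicate 8 and at probes near background. The gap of that tumor from its nearest neighbour, as a share of the range, was 0.957 for Arl6ip6, where it stood at 4.40 and the others between 4.60 and 4.61. For a dim Stam2 probe the share was 0.843, with 5.48 in that tumor, the only one in which this probe was detected, and 4.66 to 4.79 in the others.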

How the results depend on the processing

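Rnd3 and all 3 Arl5a probes were lower in VP16LXRa tumors and separated the groups in each of the 19 alternatives that were refitted. For left-out arrays, other filters and other variance models the separation was fixed in advance, since these reuse the same normalized values. Only another correction, normalization or offset could have changed it, and both genes were chosen for this separation. Without background correction the log2 difference was smaller, -1.0 for Rnd3 and -0.45 for the brightest Arl5a probe, and as the mean of its probes Arl5a differed by -1.17. With single arrays left out Rnd3 ran from -1.80 to -1.38 and Arl5a from -0.94 to -0.70. The count of neighbour probes past limma's test stayed at 0 in every alternative run, and so did that of the 7 lists. Unadjusted p-values of limma were 0.0428 (array weights) and 0.0324 (without the 2 arrays high in Axin2) for Rbm43 and 0.0477 (without VP16 replicate 2) for Stam2. The median of the neighbours was -0.40 without the 2 arrays high in Axin2 and ran from -0.32 to 0.09 with single arrays left out, and was positive when VP16 replicate 3 (0.09), VP16 replicate 4 (0.06) or VP16LXRa replicate 6 (0.01) was left out. The count of flanking genes whose groups did not overlap ran from 0 to 2 with single arrays left out, both for the nearest 25 and the nearest 50. It was 1 for both without the 2 arrays high in Axin2 (Golga1), and 1 for the nearest 50 with no filter, a receptor pseudogene at background. Of all tested genes, 2.37% to 4.97% did not overlap with single arrays left out. The share was 8.03% without the 2 arrays high in Axin2 and 1.88% with no filter. The chromosome 2 median, with alternatives chosen after seeing the data, ran from 0.031 to 0.076 over other processing and from 0.0048 (without VP16LXRa replicate 5) to 0.099 with single arrays left out. No paired analysis was possible because no replicate number occurs in both groups. Signals near background leave Nmi, Rif1 and Arl6ip6 the least certain.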

Other observations

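The tested genes of chromosome 2 other than Rnd3 and Arl5a were put in 10 blocks of 66 or 67 by their order on the chromosome. In VP16LXRa replicate 5 the median deviation from the 8-array mean was positive in all 10 blocks, from 0.077 to 0.333 on the log2 scale, while over the other 7 arrays the block medians ran from -0.156 to 0.096. The block that holds Rnd3 and Arl5a stood at 0.207 in that tumor, and the next one, from Rprm to Timm10, at 0.077, the lowest of the 10. Under other processing the chromosome 2 median of that tumor was 0.136 to 0.318, each time above the highest of its other chromosomes (0.045 to 0.163).

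Without Rnd3 and Arl5a, which were chosen for this separation, genes whose groups did not overlap numbered 13 of 666 tested on chromosome 2, or 1.95%, against 1.25% of all 9021 tested genes. Of the 13, 3 were lower in VP16LXRa tumors: Nckap1, Usp8 and Ncoa6. Usp8 was detected in 1 of the 4 VP16LXRa tumors and passed the filter only through the VP16 tumors. Ncoa6, a nuclear receptor coactivator with a log2 difference of -0.42, was chosen after its values were seen.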
